A study of Homo sapiens with 5 samples.

Results

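Glycogen synthesis and breakdown was followed through 10 genes in NCI-H209, an established human cell line of small cell lung cancer (SCLC), out of 64837 entries counted. The genes were listed by name for their roles in the pathway: PGM1, UGP2, GYS1, GYG1, GBE1, PYGL, PYGB, PYGM, PPP1R3B and PPP1R3C. They were chosen with earlier results of these data known. Bulk RNA sequencing covered 3 control libraries of untreated NCI-H209 cells and 2 libraries of NCI-H209 cells co-cultured for 24 h with human brain microvascular endothelial cells (HBMECs). In the co-culture the HBMECs sat in the upper chamber of a Transwell insert, so that a porous membrane separated them from the tumor cells. The HBMECs had been grown with Nu-serum beside fetal bovine serum, and whether the control wells held an empty insert was not given in the sources used here. All libraries came from the same line, and no label ties a replicate to a separate culture, so the p-values measure only the spread between these libraries, which may be technical.

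Glycogen is the branched polymer in which cells store glucose. Phosphoglucomutase and UDP-glucose pyrophosphorylase turn glucose 6-phosphate into UDP-glucose, glycogenin starts a chain on itself, glycogen synthase extends it and the branching enzyme adds the branches, while glycogen phosphorylase releases glucose 1-phosphate from the chain ends. Subunits of the PPP1R3 family bring protein phosphatase 1 to glycogen, where it activates the synthase and inactivates the phosphorylase, and several of these genes are known to respond to low oxygen in other cells.

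Between 17317045 and 19157348 reads were counted on genes in the control libraries, against 15457071 and 18918787 in the co-cultured ones. The unmapped share was 8.13% to 8.48% in control and 15.9% to 16.8% under co-culture, and their part in the results was not tested. Of 12 endothelial markers, 8 passed the filter on low counts. ESAM alone was called higher, where 18.4% of all tested genes were. It was at 0.229 and 1.04 CPM (means of control and co-cultured libraries, log2 fold change 2.14, edgeR adjusted p = 0.00666). ESAM passed the filter only through the co-cultured libraries, where it was high, so its p-value is no support for a difference. PECAM1 (0.484 and 0.855 CPM) and CDH5 (0.411 and 0.555 CPM) were not called. The summed level of the endothelial markers ranged from 9.57 to 19.3 CPM in control and was 12.9 and 13.1 CPM in co-cultured libraries. VWF (means of 5.69 and 5.35 CPM) was the largest part of this sum, which therefore hardly reflects ESAM. Of the 12 markers, 3 held at most 3 counts in every library. The neuroendocrine SCLC marker NCAM1 (497 and 644 CPM) was abundant in both groups, whereas CHGA held at most 1 count in any library. In bulk libraries a change in the share of cells and a change of RNA per cell cannot be told apart.

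Promoter sequence was available for 8 of the 10 genes, as 11 windows of the 250 bases before a RefSeq transcription start (GRCh38.p14); PYGM and PPP1R3B were not matched. ACGTG and GCGTG, the core letters of the site that hypoxia-inducible factors bind, were searched on both strands, and each CACGTG counted as 2 overlapping matches. At least 1 match lay in 8 of the 11 windows, against 43.2% of all 35116 windows of this length. In 7 of the 11 windows there were 2 or more matches, against 19.4% of all windows. These shares are not matched for base composition, and no enrichment was tested. By gene, 7 of the 8 had a match in some window, PYGL being the exception. The window shares do not apply to that count, since PGM1 had 3 windows and UGP2 had 2. All matches of PGM1, GYG1 and GBE1 lay inside the annotated gene, as did the match in the UGP2 window at chr2:63841646-63841895. Those of PGM1 were in the window at chr1:63593559-63593808, and its other windows had none. A match describes letters only and is neither a bound site nor a cause. The 4 stretches below, cut before the first annotated exon, show the gene with the most matches (PPP1R3C), a gene of the entry steps (UGP2), a phosphorylase (PYGB) and the upstream PGM1 start, which has none. Capitals mark the matches, read on either strand.
PPP1R3C lies at chr10:91633072-91633321 (minus strand), UGP2 at chr2:63840719-63840939, PYGB at chr20:25247835-25248068 and PGM1 at chr1:63593161-63593275 (plus strand).
PPP1R3C promoter: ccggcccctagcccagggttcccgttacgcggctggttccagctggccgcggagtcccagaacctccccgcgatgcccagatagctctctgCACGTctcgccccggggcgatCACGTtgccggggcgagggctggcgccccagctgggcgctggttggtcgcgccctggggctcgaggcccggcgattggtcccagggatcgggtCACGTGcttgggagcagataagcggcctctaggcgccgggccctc
UGP2 promoter: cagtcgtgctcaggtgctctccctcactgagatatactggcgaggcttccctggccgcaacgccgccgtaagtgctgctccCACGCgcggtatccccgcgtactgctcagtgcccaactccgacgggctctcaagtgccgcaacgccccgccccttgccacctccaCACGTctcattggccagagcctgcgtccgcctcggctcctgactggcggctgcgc
PYGB promoter: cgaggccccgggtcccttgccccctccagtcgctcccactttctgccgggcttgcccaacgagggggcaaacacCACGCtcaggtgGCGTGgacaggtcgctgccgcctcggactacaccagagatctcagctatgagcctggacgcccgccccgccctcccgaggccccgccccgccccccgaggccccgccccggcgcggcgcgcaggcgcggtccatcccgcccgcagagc
PGM1 promoter: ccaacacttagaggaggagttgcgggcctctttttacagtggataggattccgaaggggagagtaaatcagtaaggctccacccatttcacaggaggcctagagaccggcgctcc

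The co-cultured cells held more mRNA for nearly every step of the pathway. Levels are CPM, the counts of a gene scaled to a common library size after TMM normalization, and a gene was called at an adjusted p under 0.05 of the edgeR quasi-likelihood test over 20360 genes. The glycogen genes were chosen with earlier results of these data known. The shares of all tested genes given beside them are therefore background and no test. All 9 glycogen genes that passed the filter on low counts were called, where 33.4% of all tested genes were. Of these, 8 were higher, where 18.4% of all tested genes were, and PYGM alone was lower, where 15.0% were. A second criterion follows the fold and p thresholds of the study, read here on the log2 scale: a log2 fold change past 1 in either direction and an unadjusted p under 0.05. By it 6 genes were upregulated (PPP1R3C, GBE1, PGM1, PYGL, GYG1 and PYGB), against 5.44% of all tested genes, and none of the 9 was downregulated, against 5.01%. The median log2 fold change of the 9 genes was 1.01, beside -0.03 over all tested genes. No control and co-cultured values overlapped for any of the 9 genes, 8 of them higher (29.4% of all tested genes) and 1 lower (30.0%). PPP1R3B did not pass the filter.

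**Figure D1:**
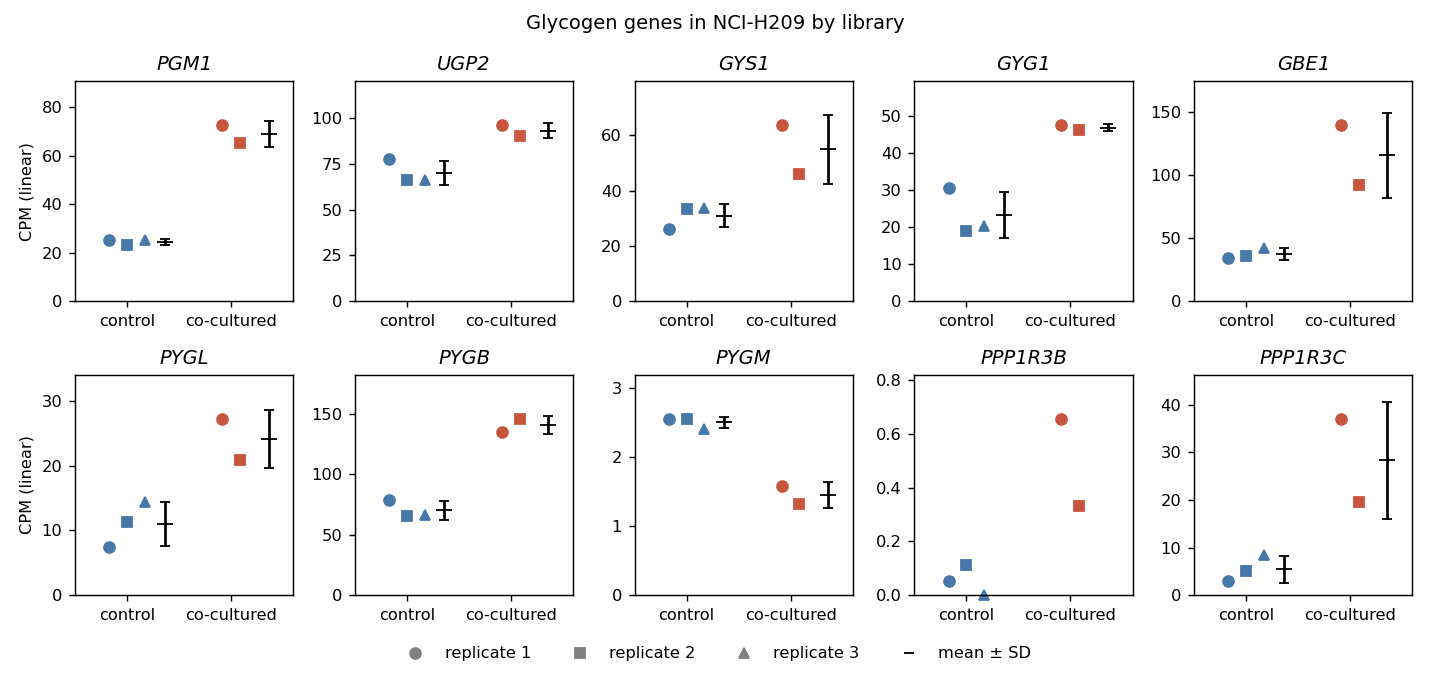
Levels of the 10 glycogen genes in each library, as CPM on linear axes that start at 0; symbols give the replicate, blue control and red co-cultured, with the mean ± SD beside them except for PPP1R3B. The groups are apart in every panel, with the co-cultured libraries lower for PYGM and higher for the other genes.

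The entry steps rose to different extents. PGM1, the phosphoglucomutase that interconverts glucose 6-phosphate and glucose 1-phosphate (chr1:63593276-63660245, plus strand), stood at 25.2, 23.1 and 25.2 CPM in the control and at 72.6 and 65.1 CPM in the co-cultured libraries. Its lowest co-cultured value was far above its highest control value, and the log2 fold change was 1.49 (SE 0.0909, edgeR adjusted p = 2.41e-05). PGM1 shares 197 exonic bases with ITGB3BP on the other strand. UGP2, which makes UDP-glucose (chr2:63840940-63891562, plus strand), was at 77.4, 66.0 and 66.2 CPM in control and at 96.0 and 90.1 CPM in co-cultured libraries. The UGP2 groups did not overlap, but the rise was the smallest among the 8, with a log2 fold change of 0.41 (SE 0.0923, edgeR adjusted p = 0.00830). It was no longer called without co-cultured replicate 1 (0.38, edgeR adjusted p = 0.0908) or replicate 2 (0.46, edgeR adjusted p = 0.0537).

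PGM1 also gained against PGM2, a related phosphomutase that acts mainly on pentose phosphates. Per kilobase of exon, PGM1 made up 55.1%, 50.6% and 52.6% of the pair in control and 65.3% and 68.5% under co-culture. The groups did not overlap, and the means of 52.8% ± 2.29 (SD, n = 3) and 66.9% ± 2.25 (SD, n = 2) differed by 14.1 percentage points. The two-sided exact permutation test gave p = 0.1, the smallest it can give with these libraries (0.4 adjusted over 4 ratios).

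All 3 chain-building genes rose, GBE1 the furthest. GYG1 encodes glycogenin-1, the protein primer of glycogen (chr3:148991341-149027668, plus strand), and was at 30.5, 19.1 and 20.2 CPM in control and at 47.5 and 46.2 CPM in co-cultured libraries. Control replicate 1 stood above the other control libraries but below both co-cultured ones, and the log2 fold change was 1.01 (SE 0.176, edgeR adjusted p = 0.00256). GYS1, the glycogen synthase of muscle and most other tissues (chr19:48968125-48993310, minus strand), was at 26.1, 33.2 and 33.6 CPM in control and at 63.7 and 46.1 CPM in co-cultured libraries. The gap between the GYS1 groups was narrower than the difference between the co-cultured libraries, and the log2 fold change was 0.83 (SE 0.152, edgeR adjusted p = 0.00331). Without co-cultured replicate 1 it was 0.58 and no longer called (edgeR adjusted p = 0.0620). GBE1, the branching enzyme (chr3:81489699-81762161, minus strand), was at 34.0, 35.6 and 42.6 CPM in control and at 139.6 and 91.8 CPM in co-cultured libraries. Both co-cultured libraries held more than any control library, with a log2 fold change of 1.63 (SE 0.164, edgeR adjusted p = 0.000180) that was 1.30 without co-cultured replicate 1.

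**Figure D2:**
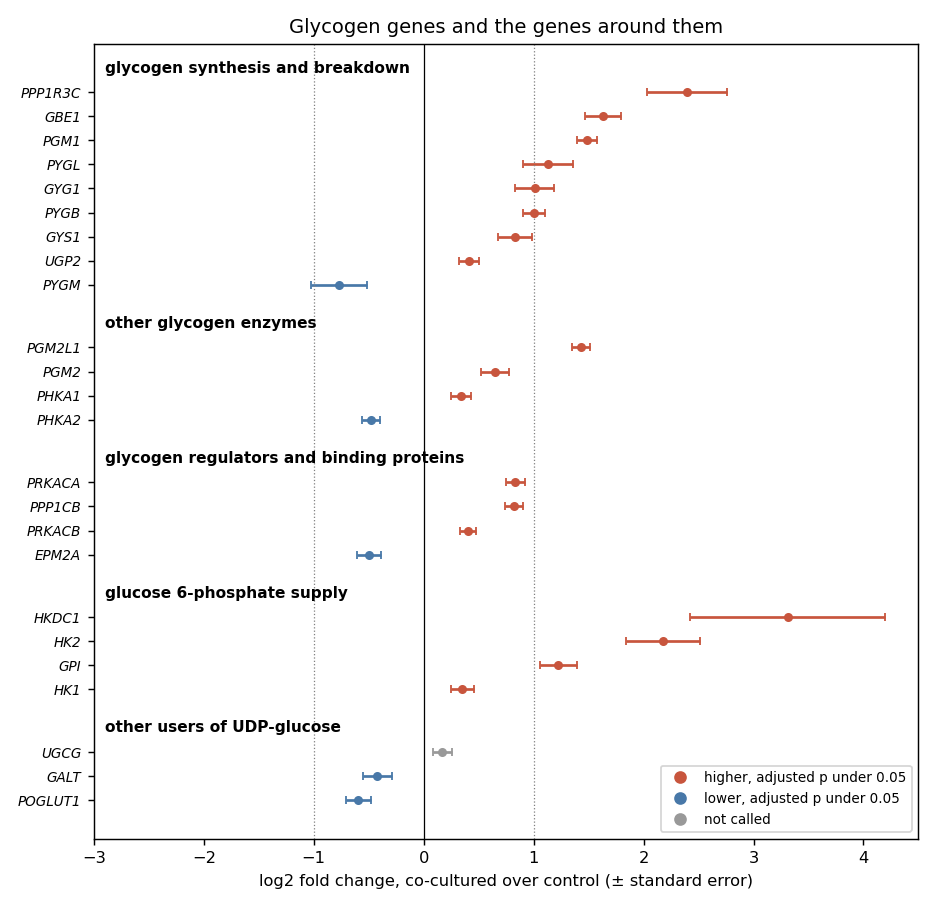
log2 fold change, co-cultured over control, with its SE for the glycogen genes and the named genes of the further lists; red marks genes called higher, blue genes called lower and grey genes not called, and dotted lines mark 1 and -1. PPP1R3C (2.39) lies furthest right and PYGM (-0.77) furthest left among the glycogen genes.

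The phosphorylase genes did not move alike. PYGB, the brain form (chr20:25248069-25298014, plus strand), was at 79.0, 65.1 and 66.2 CPM in control and at 135 and 146 CPM in co-cultured libraries. Its groups were well apart, and its log2 fold change was 1.0 (SE 0.0981, edgeR adjusted p = 0.000160), at the edge of the study criterion. PYGL, the liver form (chr14:50857891-50944736, minus strand), was at 7.44, 11.3 and 14.3 CPM in control and at 27.3 and 20.9 CPM in co-cultured libraries. The PYGL groups did not overlap although the control libraries spread widely, and the log2 fold change was 1.13 (SE 0.231, edgeR adjusted p = 0.00553). Without co-cultured replicate 1 it was 0.93 and no longer called (edgeR adjusted p = 0.0854). PYGL shares 180 exonic bases with the antisense gene AL358334.3.

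PYGM, the muscle form (chr11:64746389-64760297, minus strand), held 48, 46 and 47 counts in control and 29 and 20 under co-culture, that is 2.55, 2.54 and 2.41 CPM against 1.59 and 1.32 CPM. It was the glycogen gene that fell, with a log2 fold change of -0.77 (SE 0.254, edgeR adjusted p = 0.0427). The call rests on few counts: it was lost without control replicate 2 (-0.76, edgeR adjusted p = 0.103), control replicate 3 (-0.80, 0.0856), co-cultured replicate 1 (-0.91, 0.134) or co-cultured replicate 2 (-0.65, 0.225), and in DESeq2 (-0.77, adjusted p = 0.135).

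Summed per kilobase of exon, the only scale on which levels of different genes are set side by side here, phosphorylase mRNA was 19.7, 17.4 and 18.3 CPM per kilobase in control and 36.2 and 37.2 under co-culture. PYGB made up 81.0% to 89.5% of this sum in control and 83.4% and 87.6% under co-culture, so it was the main form in every library. The share of PYGL was 7.87%, 13.5% and 16.4% in control and 15.7% and 11.7% under co-culture. These values overlapped, and the means of 12.6% ± 4.32 (SD, n = 3) and 13.7% ± 2.81 (SD, n = 2) differed by 1.15 percentage points (two-sided exact permutation p = 0.9). The direction of this difference turned without control replicate 1 (-1.21) or co-cultured replicate 1 (-0.84). The log2 ratio of GYS1 to PYGL was 1.71 ± 0.289 (SD, n = 3) for control and 1.36 ± 0.0609 (SD, n = 2) under co-culture (two-sided exact permutation p = 0.2).

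**Figure D3:**
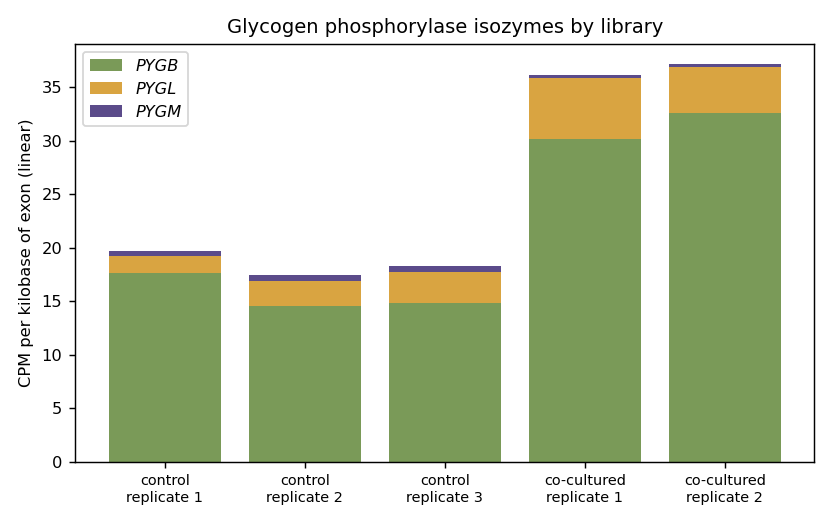
Summed level of the 3 phosphorylase genes in each library, in CPM per kilobase of exon, stacked by gene from 0. PYGB fills most of every bar, and the co-cultured bars reach 36.2 and 37.2 where the control bars reach 17.4 to 19.7.

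Reads on the opposite strand of PYGB moved the other way. They numbered 232, 238 and 274 in control and 106 and 82 under co-culture, which is 13.2 ± 0.847 CPM (SD, n = 3) and 5.61 ± 0.267 CPM (SD, n = 2). As a share of all PYGB reads they fell from 15.9% ± 2.13 to 3.85% ± 0.374, and no exon of another gene is annotated on that strand.

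Of the tested glycogen genes, the glycogen-targeting subunit PPP1R3C had the largest log2 fold change. PPP1R3C, also called PTG (chr10:91628442-91633054, minus strand), held 54, 90 and 163 counts in control and 678 and 297 under co-culture, that is 2.87, 4.98 and 8.35 CPM against 37.1 and 19.6 CPM. The groups were apart, yet the highest control library was 2.91 times the lowest and the co-cultured libraries differed 1.89 times. The log2 fold change was 2.39 (SE 0.365, edgeR adjusted p = 0.00135) and ranged from 1.86 without co-cultured replicate 1 to 2.86 without control replicate 3. PPP1R3B, the form first described in liver (chr8:9136255-9151574, minus strand), held 1, 2 and 0 counts in control and 12 and 5 under co-culture. All control values were at or under the floor of 3 counts, which had a mean of 0.16 CPM over the control libraries. The co-cultured mean of 0.493 CPM was therefore at least 3.09 times the control mean. This bound was 2.07 without co-cultured replicate 1 and 4.11 without co-cultured replicate 2. PPP1R3B shares 245 exonic bases with the antisense gene AC022784.5. The log2 ratio of PPP1R3C to PPP1R3B (0.5 added to each count) was 7.43 ± 1.83 (SD, n = 3) for control and 6.95 ± 0.00356 (SD, n = 2) under co-culture, a difference of -0.48 that became 0.58 without control replicate 3 (two-sided exact permutation p = 1).

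The order of levels per kilobase of exon changed below its top. In control libraries PYGB led with 15.7 CPM per kilobase, followed by UGP2 (10.7), GYS1 (7.29), GBE1 (7.24), GYG1 (6.62) and PGM1 (5.82), and neighbours from GYS1 to PGM1 overlapped. PYGL (2.30) and PPP1R3C (2.14) also overlapped, and PYGM (0.502) and PPP1R3B (0.00945) were lowest. In co-cultured libraries PYGB (31.4) was followed by GBE1 (22.4), PGM1 (16.3), UGP2 (14.3), GYG1 (13.3), GYS1 (12.9) and PPP1R3C (11.2), but the values of UGP2, GYG1, GYS1 and PPP1R3C overlapped, except those of UGP2 and GYG1. PYGL (5.02), PYGM (0.292) and PPP1R3B (0.0854) came last.

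Libraries of the same group also differed, and not in the same direction for all genes. Co-cultured replicate 1 held more than replicate 2 for 9 of the 10 genes, PYGB being the exception. How many of all tested genes did so was not worked out, so this is not shown to be particular to the glycogen genes. PYGM and PPP1R3B, among the 9, held few counts. Control replicate 1 was the lowest control library for GYS1, GBE1, PYGL and PPP1R3C and the highest for UGP2, GYG1, PYGB and PYGM, while control replicate 3 was the highest for PGM1, GYS1, GBE1, PYGL and PPP1R3C. HK2, the hexokinase that feeds glucose into the pathway, had its extremes in the same libraries as PPP1R3C, at 47.3, 117 and 126 CPM in control and 529 and 344 CPM under co-culture. GPI, which interconverts glucose 6-phosphate and fructose 6-phosphate, did so too, at 166, 208 and 257 CPM in control and 552 and 431 CPM under co-culture. What set these libraries apart was not tested.

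**Figure D4:**
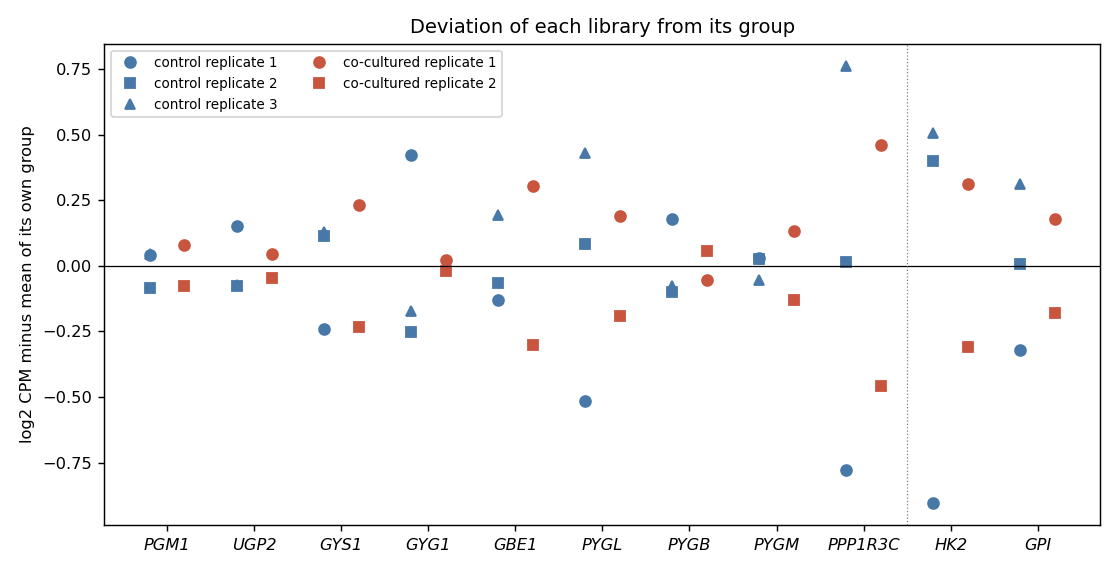
Level of each tested glycogen gene, and of HK2 and GPI right of the dotted line, in each library as log2 CPM minus the mean of its group. Control replicate 1 lies lowest in its group for PPP1R3C, HK2 and GPI. Co-cultured replicate 1 lies above replicate 2 for every glycogen gene shown except PYGB.

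The rest of the pathway was read from 4 further lists. Of their 52 genes 41 were tested, 13 rose, 5 fell and 23 were not called, where 18.4% of all tested genes rose and 15.0% fell, and the median change was 0.17 on the log2 scale. Of 12 other glycogen enzymes 10 were tested, 4 rose (18.4% of all tested genes) and 2 fell (15.0%), and their median was 0.05. PGM2L1, which makes glucose 1,6-bisphosphate, the cofactor of phosphoglucomutase, rose by a log2 fold change of 1.43 (SE 0.0846, edgeR adjusted p = 2.19e-05). PGM2 rose by 0.65 (edgeR adjusted p = 0.00461). The alpha subunits of phosphorylase kinase, which activates phosphorylase, went opposite ways, PHKA1 by 0.34 (edgeR adjusted p = 0.0173) and PHKA2 by -0.48 (edgeR adjusted p = 0.00234). GYS2, the liver synthase, held no count in any library.

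Of 22 regulators and binding proteins 18 were tested, 5 rose and 1 fell, a share called near the 33.4% of all tested genes, and the median change was 0.14 on the log2 scale. PPP1CB, a catalytic subunit of protein phosphatase 1, rose by 0.82 (edgeR adjusted p = 0.000182). PRKACA and PRKACB, catalytic subunits of protein kinase A, which opposes that phosphatase on glycogen enzymes, rose by 0.83 (edgeR adjusted p = 0.000204) and 0.40 (edgeR adjusted p = 0.00359). EPM2A, the glycogen phosphatase laforin, fell by 0.50 on the log2 scale (edgeR adjusted p = 0.00716).

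Among 10 genes of glucose 6-phosphate supply 5 were tested and 4 rose, where 18.4% of all tested genes did. The median change was 1.22 on the log2 scale. These counts and this median, and those over all further lists, include HKDC1. It passed the filter on low counts only through the co-cultured libraries, where it was high. HK2 rose by 2.18 (edgeR adjusted p = 0.00148), GPI by 1.22 (edgeR adjusted p = 0.000804) and HK1 by 0.35 (edgeR adjusted p = 0.0291). HKDC1, a further hexokinase, held 0, 5 and 0 counts in control and 22 and 10 under co-culture, and its log2 fold change of 3.31 (edgeR adjusted p = 0.0188) rests on control replicate 2 for all control counts, so no fold is given without it. Among other users of UDP-glucose, of 8 genes, all tested, none was higher and 2 were lower (18.4% and 15.0% of all tested genes), POGLUT1, a protein O-glucosyltransferase, by -0.60 (edgeR adjusted p = 0.00414) and GALT, a uridylyltransferase of galactose use, by -0.42 (edgeR adjusted p = 0.0364). UGCG, which makes glucosylceramide, was at 0.17 (edgeR adjusted p = 0.173) and was not called.

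Several of these calls needed both co-cultured libraries. Without co-cultured replicate 1 the edgeR adjusted p was 0.0830 for PGM2, 0.0972 for PHKA1, 0.0901 for EPM2A, 0.292 for HK1, 0.196 for HKDC1, 0.0660 for POGLUT1 and 0.237 for GALT. Without co-cultured replicate 2 it was 0.139 for PHKA1, 0.0544 for PRKACB, 0.0617 for EPM2A, 0.0641 for HKDC1 and 0.125 for GALT. Without control replicate 2 it was 0.0724 for HK1 and 0.105 for GALT, and without control replicate 3 it was 0.112 for GALT. UGCG was called without control replicate 1 (0.24, edgeR adjusted p = 0.00427).

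**Figure D5:**
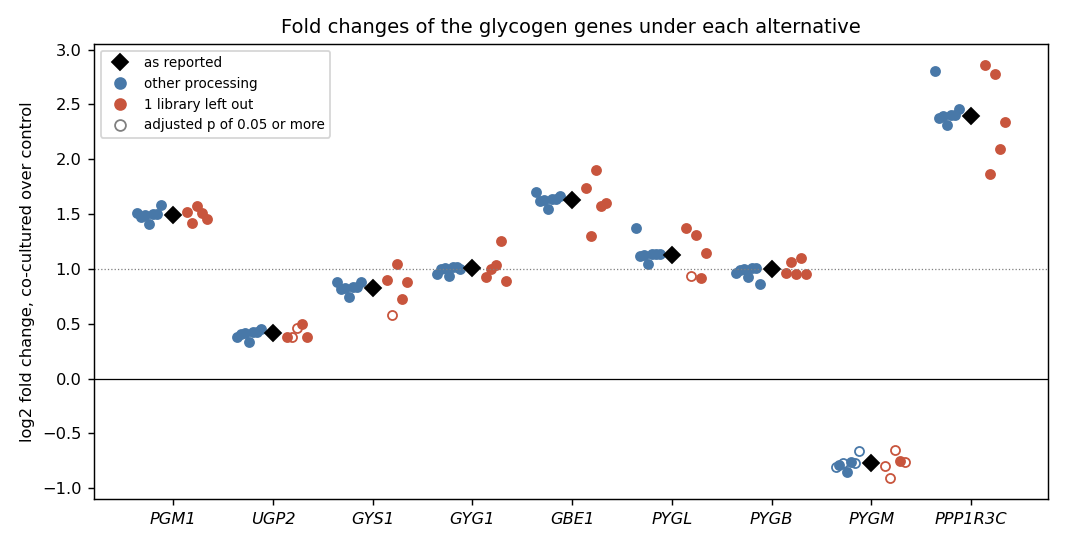
log2 fold change of the 9 tested glycogen genes as reported (black diamond), under other processing (blue) and with 1 library left out (red); hollow circles have an adjusted p of 0.05 or more, and the dotted line marks 1. No value crosses 0, and PPP1R3C spans the widest range, from 1.86 to 2.86.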

How the data were processed

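RNA was measured in 5 libraries of NCI-H209 cells, grouped by their labels into 3 control and 2 co-cultured. Per the submitters' processing notes, CASAVA 1.8, STAR 2.6.1b, DESeq2 and GRCh38 were used; what each did is not set out there. The authors deposited raw read counts per gene for each library, in the layout STAR writes, unnormalized; counts on the library strand, 92.3% to 93.1% of the stranded reads, were used. A further deposited table pairs identifiers with symbols; its 8 value columns hold the authors' own comparison and were not used.

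Counts were fitted with edgeR 4.0.16 in R 4.3.3 (filterByExpr, TMM, quasi-likelihood test, Benjamini-Hochberg over 20360 genes), after a check on simulated data. Exon lengths and positions came from GENCODE release 29. Ratios were compared by two-sided exact permutation over libraries. The alternatives were DESeq2 1.42.0, other normalizations and filters, unstranded counts, a replicate block and each library left out. The genes and lists were chosen with earlier results of these data known. All 10 genes were named, and of each further list the genes meeting the study criterion or, where fewer than 4 did, those with the smallest p up to 4, except that 1 is not reported here. Floors cover counting error only.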

Additional observations from a re-analysis of the deposited data

Results flagged for a closer look

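Reads on the opposite strand of PGM1 were at 2.35 and 1.19 CPM in the co-cultured and at 0.585, 1.05 and 1.18 CPM in the control libraries. The co-cultured mean of 1.77 CPM was above every control library, although co-cultured replicate 2 hardly exceeded the highest of them. These reads entered the fit of unstranded counts only, and as a share of all PGM1 reads they were 3.69% in control and 2.57% under co-culture. PGM1 and ITGB3BP share 197 exonic bases on opposite strands, and the source of these reads was not tested.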

How the results depend on the processing

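None of the 9 tested glycogen genes changed direction under any alternative: of 108 values, 96 kept their side of the threshold and 12 lost the call. Of 179 values of the named genes of the further lists, 157 kept their side, 21 lost the call and 1 gained it. With each library left out in turn, 2734 to 9897 genes were called (6809 with all 5), 5 to 9 glycogen genes (9) and 8 to 26 genes of the further lists (18). The highest counts came without control replicate 1, which differed most from its group (chi-square per degree of freedom 17.9 and 18.1 against the other control libraries, which gave 6.34 between them). The lowest counts came without co-cultured replicate 1 (2734, 5 and 8), and without co-cultured replicate 2 they were 3023, 7 and 9. A minimum of 10 counts in every library left 1280 genes at the study criterion (2128 as reported). The difference in PYGL share ranged from -1.21 to 3.13 percentage points, and that of the log2 ratio of PPP1R3C to PPP1R3B from -1.01 to 0.58, with 1 library left out. Upper-quartile normalization moved the median of all genes to -0.11 and the share of calls that were higher from 55.1% to 43.9%; it left 4 glycogen genes at the study criterion, and 8 higher and 1 lower. Over all alternatives that number ran from 4 to 7. With at least 1 count in any library, PPP1R3B was called (edgeR adjusted p = 0.00476) and PYGM was not (0.0563). The PPP1R3B call rests on 1, 2 and 0 counts in control and 12 and 5 under co-culture. That filter also changed the SE of single genes, for PPP1R3C from 0.365 to 0.156 and for PGM1 from 0.0909 to 0.112. Its adjusted p-values are therefore not on a par with those reported above. GALT lost its call in DESeq2 (adjusted p = 0.0854), in unstranded counts (edgeR adjusted p = 0.0539) and under the filter of 1 count in any library (0.0680), and PHKA1 (0.0608) and HK1 (0.0766) lost theirs under upper-quartile normalization; PYGM was also lost in unstranded counts (0.0619). The causes were not tested.

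No label ties same-numbered libraries beyond the number. Their deviations from the group means correlated at -0.11 for number 1 and -0.07 for number 2. The deviations of the 2 co-cultured libraries mirror each other, so these values cannot decide whether same-numbered libraries were paired. With a replicate block 4824 genes were called, 2040 met the study criterion, and 8 glycogen genes and 14 genes of the further lists were called, PYGM (edgeR adjusted p = 0.118) and GALT (0.175) being lost. Few counts limit PYGM, PPP1R3B and HKDC1, and 2 co-cultured libraries limit every comparison.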
